A study of Mus musculus with 6 samples.

Results

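The RNA of 45 enzyme genes of central carbon metabolism was compared between CD4+ T cells of infant and adult mice. The genes were chosen by name, with earlier results of these data known. They cover 3 branches: 17 of glycolysis, 7 of the pentose phosphate pathway, and 21 of the pyruvate dehydrogenase complex, the citrate cycle and its side enzymes. All 45 were found among the 52997 gene symbols of the count table, and 44 passed the filter on low counts. The exception was Hk2.

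Glycolysis splits glucose into pyruvate in the cytosol, and lactate dehydrogenase turns pyruvate into lactate. The pentose phosphate pathway branches off at glucose-6-phosphate and supplies NADPH and the ribose of nucleotides. Pyruvate dehydrogenase feeds acetyl-CoA into the citrate cycle in mitochondria, which drives respiration. Resting naive T cells are known to rely mainly on respiration, and activated T cells are known to raise glycolysis and lactate output.

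All 6 libraries came from sorted CD4+ T cells of pooled lymph nodes of Foxp3-GFP mice on the C57BL/6 strain, titled Tconv, 3 from adult mice aged 7 weeks and 3 from infant mice aged 10 days. The series describes the cells as naive, and each library as 1 mouse. No treatment or further allele is labelled. Library totals ran from 3421253 to 4887371 counts. Adult replicate 2 stood apart: 36373 genes had a count there, and 17992 to 21840 genes did in each of the other 5 libraries.

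CD4 T cell genes (6 of 6 tested) summed to 5774 to 6608 CPM (counts scaled by library size) in adults and 6051 to 6434 in infants. Of the other-cell lists, the sums for B cell (709.7 to 839.8 CPM adult, 690.3 to 806 infant, nearly all from Ighm), stroma and endothelium (322 to 395 and 376 to 391, nearly all from Pecam1) and CD8 T cell genes (31.3 to 36.5 and 32.0 to 41.8) overlapped between the ages. The same held for myeloid, dendritic cell, NK and gamma-delta T cell, regulatory T cell and erythroid genes, each at most 32.7 CPM in sum. For myeloid, dendritic cell and regulatory T cell genes that overlap came from adult replicate 2 alone: the other 2 adults had 9.45 and 5.55, 0.485 and 0.641, and 18.7 and 12.6 CPM, below infant ranges of 11.1 to 14.8, 0.967 to 2.30 and 21.5 to 26.8. Cycling cell genes differed: their sum was 12.1, 61.1 and 17.1 CPM in adults and 105, 110 and 218 in infants. Of these genes, 4 of 9 tested (of 12 listed) rose, against 1.52% of all tested genes. Mki67, Ccna2 and Nusap1 among the 4 had at most 14 counts in any adult library and passed the filter on low counts through the infant libraries. The filter thus partly sets that count. In bulk libraries, a change in the share of cycling cells and a change in RNA per cell cannot be told apart.

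Most of the 45 genes lay close together at both ages. Of the 44 tested, 29 had an absolute log2 fold change under 0.25 and 40 under 0.5. By the quasi-likelihood test of edgeR, with Benjamini-Hochberg adjusted p over all 11681 tested genes, Tpi1 and Ldha rose in infant cells, 0 fell and 42 did not pass at an adjusted p of 0.05. Those 2 of 44 are 4.55%, against a background of 3.64% of all tested genes (1.52% for a rise and 2.11% for a fall), so the count of calls was near that of genes at large. The median log2 fold change, infant over adult, was 0.10 over the 44 members and −0.0017 over all tested genes. By branch it was 0.098 in glycolysis, 0.055 in the pentose phosphate pathway and 0.12 in the citrate cycle. Without adult replicate 2 the medians were 0.057, 0.041, 0.12 and 0.061, in the same order, and without infant replicate 3 that of the citrate cycle was 0.061.

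The 3 infant values lay wholly above the 3 adult values in 12 of 44 members (27.3%) and wholly below in 1, Pgam1. Over all tested genes, 11.2% lay above and 11.6% below, 22.8% together. Summed over the 45 genes, the level was 7690, 7044 and 8065 CPM in adults and 8322, 8308 and 8892 in infants. All infant sums were thus above all adult sums, with a mean 11.9% higher. Without Tpi1 and Ldha the sums were 6965, 6335 and 7260 against 7337, 7352 and 7750, a mean 9.14% higher, again without overlap. The lowest adult sum in each case was that of adult replicate 2, and without that library the means were 7.9995% and 5.16% higher.

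**Figure D1:**
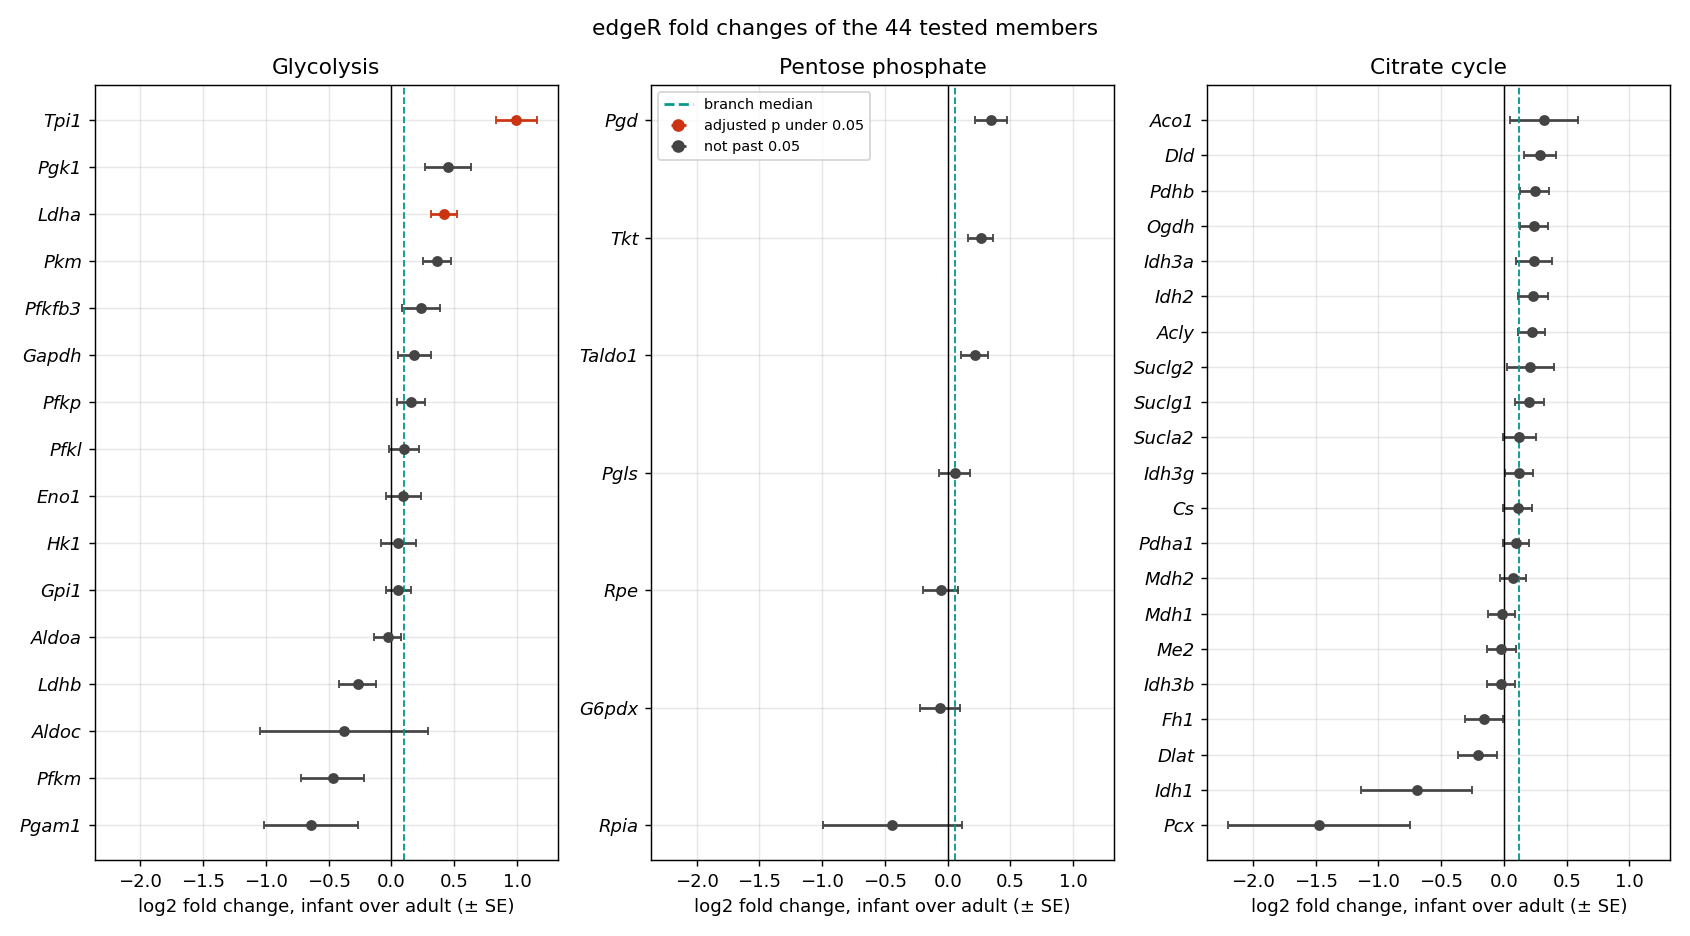
Log2 fold change of infant over adult with its SE (edgeR, 3 libraries per age) for the 44 tested members, by branch, with the branch median as a dashed line. Tpi1 (1.00) and Ldha (0.42) are the 2 in red, past an adjusted p of 0.05, and Pcx, Aldoc, Rpia and Idh1 have the widest errors.

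To compare levels between genes, CPM was divided by the kilobases of annotated exon, merged over all transcripts of a gene. That length can exceed any single transcript, so the order of genes depends on it. In CPM alone, Tkt (341 adult, 409 infant) lay above Taldo1 (255 and 296), with exon lengths of 7355 and 2171 bases. Per kb, Ldha was the highest of the 45 genes, at 212 ± 13.6 CPM per kb in adult (SD, n = 3) and 283 ± 25.8 in infants. Aldoa followed at 162 ± 16.7 and 159 ± 10.6, and then Taldo1 at 117 ± 11.9 and 136 ± 2.86. Pkm (97.8 ± 10.2 and 126 ± 11.1), Mdh1 (107 ± 7.71 and 106 ± 8.99) and Mdh2 (94.3 ± 7.65 and 98.9 ± 4.35) had overlapping ranges over the adult libraries, although Mdh1 was above Mdh2 in each adult library. At the lower end stood Pgam1, Idh1, Pcx, Aldoc, Rpia and Hk2, each under 5 CPM per kb at both ages.

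**Figure D2:**
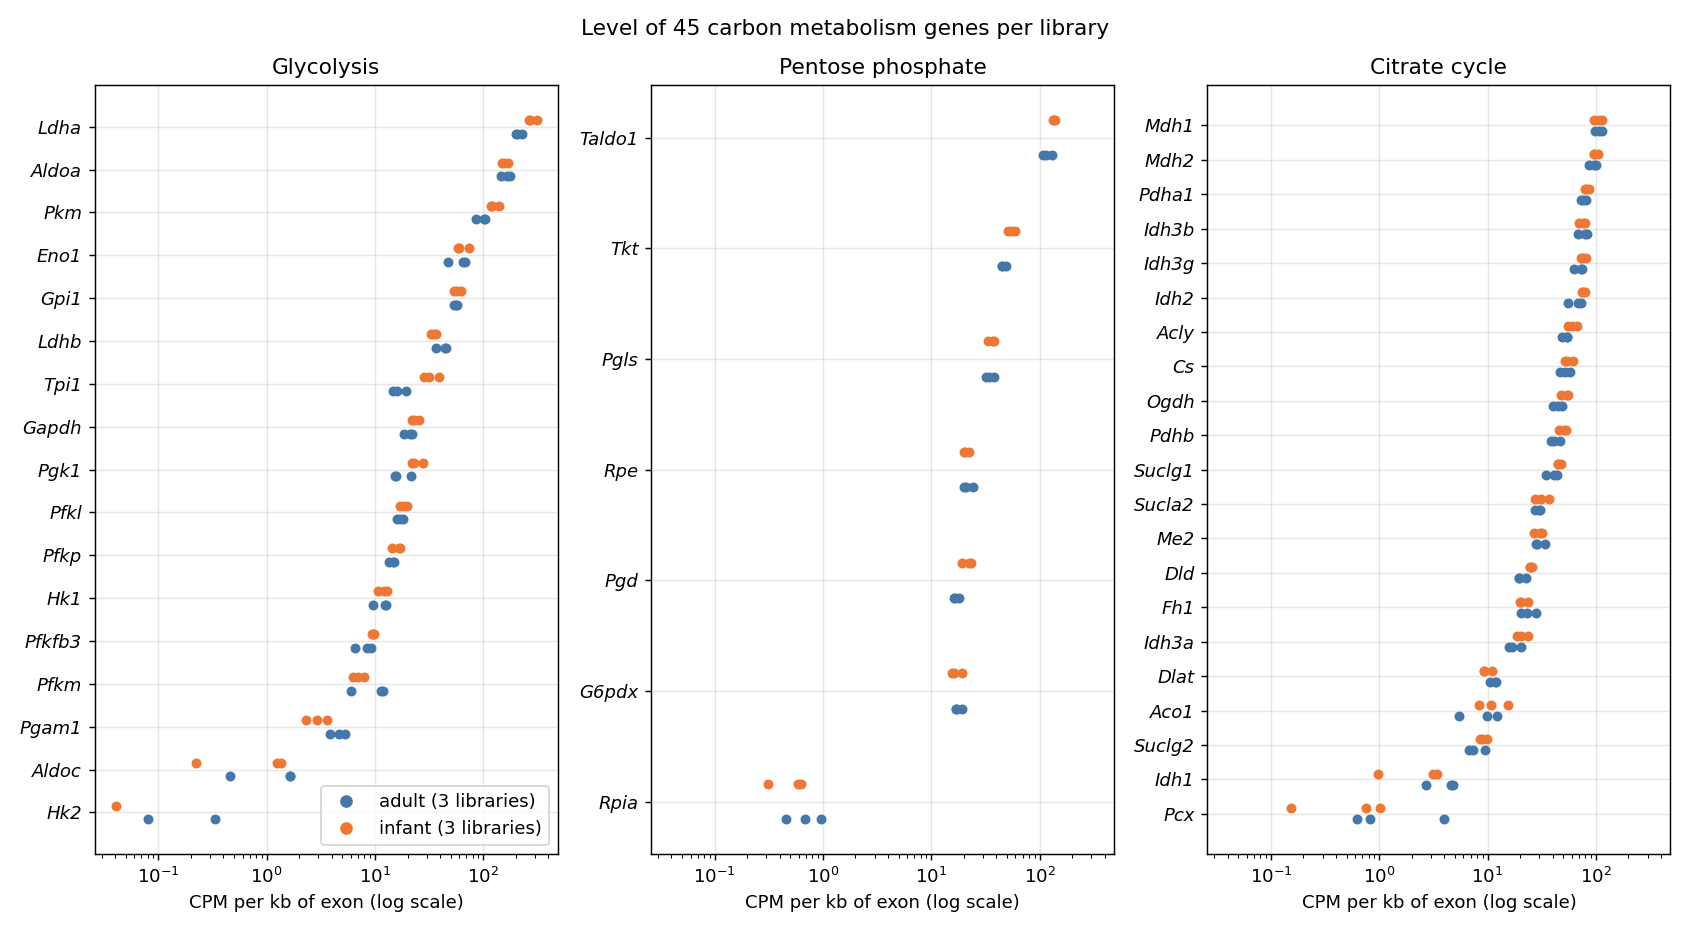
CPM per kb of exon in each library (log axis) for the 45 genes, ordered by their mean within each branch, with adult libraries in blue and infant libraries in orange. Values of 0 (Hk2 in 3 libraries) are not drawn. On this scale, which depends on the annotated exon length, Ldha leads glycolysis, Taldo1 the pentose phosphate pathway, and Mdh1 and Mdh2 the citrate cycle genes.

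Reads of 25 bases can match a gene and its copies. Of the distinct 25-base stretches in a gene's annotated transcripts, at least 90% were found in no other gene for 28 of the 45 members. The lowest shares were 44.8% for Pgk1, 62.0% for Pkm and Ldhb, 62.5% for Pgam1, 70.6% for Eno1 and 71.0% for Gapdh. Ldha, at 75.9%, and Tpi1, at 85.2%, also lay under 90%. Gapdh shared at least 10% of its stretches with 58 other genes, and the 56 of these in the table held 51 to 95 counts per library in sum. The sources used here do not say how reads with several matches were counted, so levels of these genes relative to others are uncertain, which includes the low place of Gapdh (20.5 ± 1.78 and 23.3 ± 1.89 CPM per kb). G6pdx has 2 such copies, which held 304 to 574 counts per library against 185 to 279 for G6pdx itself. Without strand, reads in exons that overlap another gene cannot be assigned with certainty, whichever way they were counted. At least 15% of the annotated exon of Pgls, Rpe, Pdha1 and Pkm lies in exons of another gene.

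In glycolysis 2 of 16 tested genes rose (12.5%), 0 fell and 14 did not pass. Over all tested genes 3.64% passed and 1.52% rose. Both members that rose, Tpi1 and Ldha, act below the aldolase step, as do Gapdh, Pgk1, Pgam1, Eno1, Pkm and Ldhb, which did not pass. Hk1, the hexokinase that traps glucose in the cell, was at 105, 82.7 and 107 CPM in adults and 111, 104 and 92.0 in infants (log2 fold change 0.056 ± 0.14, SE). Hk2, the inducible hexokinase, had 2, 7 and 0 counts in adults and 0, 1 and 0 in infants. The 7 counts of adult replicate 2 were fewer than the 11.1 that the gene's length would hold at that library's density over untested autosomal protein-coding genes (1.85 counts per kb, against 0.186 to 0.349 in the other libraries). The count of Hk2 was below each library's own background except in adult replicate 1, which had 2 counts against 1.11.

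Gpi1, which isomerises glucose-6-phosphate, had 358, 343 and 373 CPM in adults and 349, 368 and 400.2 in infants (0.056 ± 0.10). Pfkl, the phosphofructokinase gene of highest level per kb of merged exon, had 114, 106 and 122 against 122, 132 and 114 CPM (0.10 ± 0.12). Its paralogues Pfkp (0.16 ± 0.11) and Pfkm (−0.47 ± 0.25) did not pass either. In CPM without the length, Pfkp was the higher gene, with means of 192 in adults and 215 in infants. Groups overlapped for Hk1, Gpi1 and all 3 phosphofructokinase genes. Pfkfb3, which makes the activator of phosphofructokinase, fructose-2,6-bisphosphate, had 69.8, 50.003 and 64.1 CPM in adults and 74.1, 70.9 and 72.0 in infants. The infant values were all above the adult ones, by a log2 fold change of 0.24 ± 0.15 that did not pass (edgeR adjusted p = 0.477). Aldoa, the aldolase that cleaves the sugar into the 2 trioses, had 609, 536 and 659.5 against 577, 558 and 633 CPM (−0.030 ± 0.11), and the groups overlapped.

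Tpi1 encodes triosephosphate isomerase, which interconverts those trioses, and the gene on chromosome 6 spans 124810586 to 124814296 in mm10. Tpi1 had 43.6, 40.3 and 52.8 CPM in adults and 87.7, 78.4 and 107 in infants. Each infant library was above every adult library, and infant replicate 3 was the highest. The log2 fold change was 1.00 ± 0.16 (edgeR adjusted p = 0.00323), the largest positive value among the members. The call held when any 1 of the 6 libraries was left out, with fold changes of 0.86 (without infant replicate 3) to 1.11 and adjusted p of at most 0.0339.

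Gapdh, the dehydrogenase of the next step, had 91.2, 76.7 and 86.3 CPM in adults and 94.0, 89.97 and 105 in infants (0.18 ± 0.13), with overlap. Pgk1, the first ATP-forming kinase of the pathway, had 34.7, 35.2 and 48.1 against 49.0, 51.3 and 61.8 CPM. Its infant values were all above its adult values, the nearest by less than 1 CPM, and the log2 fold change of 0.45 ± 0.18 did not pass (edgeR adjusted p = 0.213). Pgam1, the phosphoglycerate mutase, went the other way, with 9.21, 7.67 and 10.5 CPM in adults and 7.12, 4.60 and 5.80 in infants, again without overlap and without passing (−0.64 ± 0.37, edgeR adjusted p = 0.427). Its counts were 19 to 49 per library. Eno1, the enolase, had 353, 253 and 361 against 316, 322 and 397 CPM (0.095 ± 0.14), and the groups overlapped.

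Pkm, the pyruvate kinase that completes glycolysis, had 513, 431 and 525 CPM in adults and 594, 602 and 694 in infants. Its infant values were all above its adult values, and the log2 fold change was 0.36 ± 0.11 (edgeR adjusted p = 0.0878). Pkm passed with DESeq2 (adjusted p = 0.0120) and with library totals in edgeR (adjusted p = 0.0290), and in no other setting. Ldha, the lactate dehydrogenase subunit that favours lactate formation, lies on chromosome 7 (46841475 to 46855627). It had 681, 669 and 752 CPM in adults and 898, 878 and 1035 in infants, with every infant library above every adult one. The log2 fold change was 0.42 ± 0.10 (edgeR adjusted p = 0.0345). That call was lost without adult replicate 1 or 3 or any 1 of the infant libraries (adjusted p = 0.162, 0.0652, 0.0853, 0.120 and 0.186) and kept without adult replicate 2 (0.0337). Over these 6 fits the log2 fold change was 0.34 to 0.47. With no filter on low counts the call was also lost (0.169).

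Infant replicate 3 had the highest value of Tpi1, Pgk1, Pkm and Ldha, and also the highest sum of cycling cell genes (218 CPM against 105 and 110). Among adults, replicate 2 had the highest sum of cycling cell genes (61.1 CPM against 12.1 and 17.1). It had the lowest adult value of Tpi1, Pkm and Ldha, while that of Pgk1 was in adult replicate 1. The part of cycling cells in these results was not tested.

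**Figure D3:**
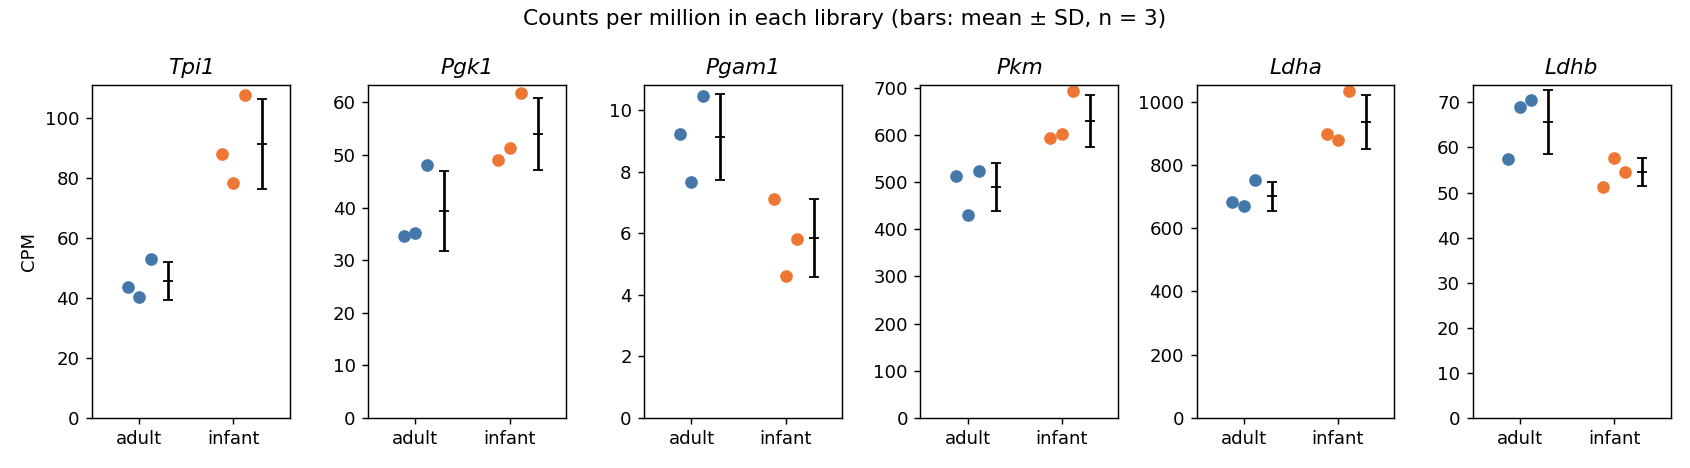
CPM in each of 3 adult (blue) and 3 infant (orange) libraries for 6 genes of lower glycolysis, each with its own axis from 0; black bars are the mean ± SD. Infant points lie above all adult points for Tpi1, Pgk1, Pkm and Ldha and below them for Pgam1, and the points of Ldhb overlap.

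Of the 2 lactate dehydrogenase genes, only Ldha passed. Ldhb, the subunit that favours pyruvate formation, had 57.5, 69.0 and 70.5 CPM in adults and 51.3, 57.6 and 54.6 in infants (a log2 difference of −0.27 ± 0.15, edgeR adjusted p = 0.392). Per kb, Ldha made up 84.9%, 82.1% and 83.5% of the sum of both genes in adults and 89.2%, 87.9% and 89.99% in infants. The shares did not overlap, with means of 83.5% ± 1.39 and 89.0% ± 1.09 (SD, n = 3). Among phosphofructokinase genes, Pfkm held 26.5%, 17.1% and 26.3% per kb in adults and 18.6%, 16.0% and 16.7% in infants, so that adult replicate 2 lay among the infant values. The size of these shares depends on the exon lengths used, 3340 bases for Pfkm, 6675 for Pfkl and 13401 for Pfkp. Aldoc, the second aldolase, held at most 1.13% of aldolase in any library.

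**Figure D4:**
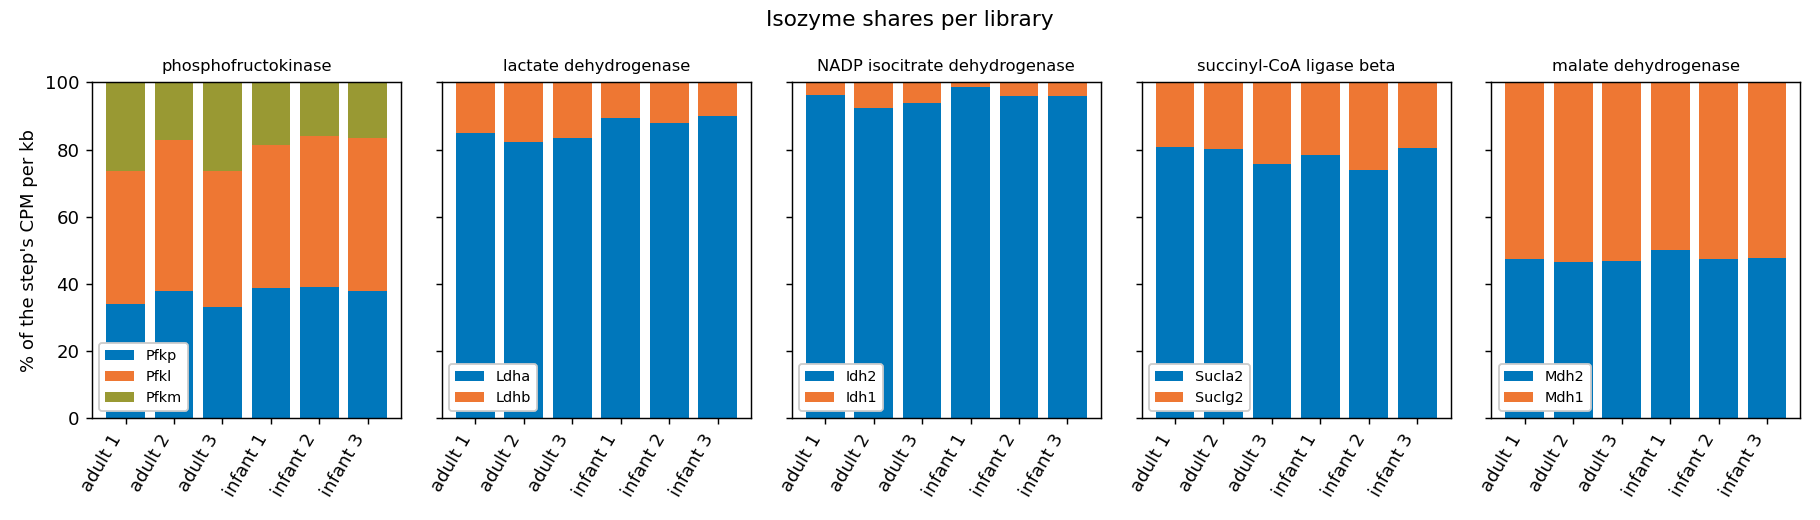
Share of each isozyme gene in the CPM per kb of its step, in each library, for 5 steps. The Ldha share is 82.1% to 84.9% in adults and 87.9% to 89.99% in infants, while the shares of Pfkm, Idh1, Sucla2 and Mdh2 overlap between the ages.

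Promoter sequence was set beside the 4 genes past the threshold or without overlap at an absolute log2 fold change of at least 0.4 (Tpi1, Ldha, Pgk1 and Pgam1), since several genes of glycolysis are textbook targets of the hypoxia-inducible factor HIF-1 and of Myc. The letters searched were ACGTG and GCGTG, the core of the HIF-1 element, and CACGTG, the E-box that Myc binds, on both strands in the 250 bases before each RefSeq start (GRCm38.p6). A CACGTG holds ACGTG on both strands and so counts as 2 core matches. Sequences run 5′ to 3′ on the gene's strand, with matches in capitals. For Tpi1, the 112 bases before its first annotated exon are shown, and for Ldha the upstream of its 2 starts.
Tpi1, chr6:124814297-124814408, minus strand: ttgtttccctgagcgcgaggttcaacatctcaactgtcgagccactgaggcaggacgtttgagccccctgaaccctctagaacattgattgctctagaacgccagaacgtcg
Ldha, chr7:46845554-46845803, plus strand: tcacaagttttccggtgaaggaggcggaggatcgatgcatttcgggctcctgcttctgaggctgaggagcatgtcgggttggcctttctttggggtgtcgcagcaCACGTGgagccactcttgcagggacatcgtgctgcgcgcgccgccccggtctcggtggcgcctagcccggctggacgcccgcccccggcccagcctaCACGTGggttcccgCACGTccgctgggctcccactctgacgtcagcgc
Pgk1, chrX:106186850-106187099, plus strand: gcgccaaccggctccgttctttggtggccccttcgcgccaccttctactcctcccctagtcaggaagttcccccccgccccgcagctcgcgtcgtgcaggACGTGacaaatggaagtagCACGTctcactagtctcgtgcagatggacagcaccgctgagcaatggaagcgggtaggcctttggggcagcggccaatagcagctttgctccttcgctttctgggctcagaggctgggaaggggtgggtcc
Pgam1, chr19:41911621-41911870, plus strand: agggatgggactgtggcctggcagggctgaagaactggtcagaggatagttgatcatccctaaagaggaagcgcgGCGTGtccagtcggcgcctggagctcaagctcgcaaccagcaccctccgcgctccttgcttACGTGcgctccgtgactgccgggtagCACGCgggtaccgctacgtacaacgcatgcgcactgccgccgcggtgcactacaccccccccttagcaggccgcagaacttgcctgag

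The window of Ldha held 5 core matches, 4 of them in 2 CACGTG hexamers, that of Pgam1 held 3, that of Pgk1 held 2 and that of Tpi1 held 0. The window before the other start of Ldha (chr7:46846832-46847081) held 1, so the place of Ldha among the 4 genes depends on the start. Of the 43 members in the RefSeq table, 33 (76.7%) had a core match before at least 1 start: 15 of 17 in glycolysis (88.2%), 6 of 7 in the pentose phosphate pathway (85.7%) and 12 of 19 in the citrate cycle (63.2%). The share was 62.6% of 8324 tested symbols and 41.5% of all 27025 symbols of the table. CACGTG was before a start of 5 members (11.6%), against 10.4% of tested symbols. A match is a run of letters, not evidence of binding, and genes with several starts have more windows in which to match.

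In the pentose phosphate pathway 0 of 7 genes passed over all genes in edgeR, and 0 in DESeq2, while 2 had an unadjusted p under 0.05 (Pgd and Tkt). Over all tested genes, 17.3% had such a p. In the oxidative arm, which yields NADPH, 0 of 3 genes passed. G6pdx, its first and rate-limiting enzyme, had 51.9, 52.6 and 59.6 CPM in adults and 49.8, 59.7 and 47.8 in infants (−0.062 ± 0.16). Pgls, the lactonase, had 129.7, 144 and 122 against 125, 144 and 141 (0.055 ± 0.12). Groups overlapped for both. Pgd, which makes the second NADPH, had 118, 106 and 105 CPM in adults and 123, 143 and 152 in infants, without overlap (0.34 ± 0.12, edgeR adjusted p = 0.162).

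The non-oxidative arm recycles pentoses into glycolysis through transketolase and transaldolase. Tkt, the transketolase, had 333, 331 and 358 CPM in adults and 408, 380.2 and 438 in infants (0.26 ± 0.10, edgeR adjusted p = 0.192). Taldo1, the transaldolase, had 248, 233 and 283 against 302, 289.7 and 296 (0.22 ± 0.11, edgeR adjusted p = 0.335). Both had all infant values above all adult values, and neither passed. Rpe, the pentose epimerase, lay at −0.057 ± 0.14, and Rpia, the ribose isomerase, at 1.68 to 5.11 CPM over all libraries, was too low for a narrow estimate (−0.44 ± 0.56).

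For the pyruvate dehydrogenase complex, 0 of 4 genes passed. Pdha1, the E1 alpha subunit, had 303, 272 and 285 CPM in adults and 302, 296 and 320.5 in infants, with overlap (0.096 ± 0.10). Pdhb, the E1 beta subunit, lay at 0.25 ± 0.12 and Dlat, the E2 subunit, at −0.21 ± 0.16. Dld, the E3 subunit that the 2-oxoglutarate complex shares, had 83.6, 71.6 and 71.4 CPM in adults and 91.1, 95.3 and 90.1 in infants, without overlap (0.29 ± 0.13, edgeR adjusted p = 0.277).

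In the citrate cycle and its side enzymes, 0 of 17 further genes passed. Over all 21 genes of this branch DESeq2 also called 0, and 2 had an unadjusted p under 0.05 (Dld and Ogdh), which is 9.52% of them and below the 17.3% of all tested genes. Cs, which condenses acetyl-CoA with oxaloacetate, had 333, 269 and 301 CPM in adults and 315, 300.1 and 359 in infants (0.11 ± 0.11). Of the NAD-dependent isocitrate dehydrogenase, Idh3b had 269, 234 and 284 against 242, 271 and 263 (−0.023 ± 0.11), Idh3g lay at 0.12 ± 0.11 and Idh3a at 0.24 ± 0.14. All 3 subunits overlapped in CPM between ages, as did Cs. Of the sum of the 3 per kb, Idh3b held 46.0% to 47.0% in adults and 41.5% to 45.2% in infants, without overlap. The shares of Idh3a and Idh3g overlapped.

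Ogdh, the E1 subunit of the 2-oxoglutarate complex, had 221, 243 and 264 CPM in adults and 304, 295 and 261 in infants, with infant replicate 3 inside the adult range (0.24 ± 0.11, edgeR adjusted p = 0.283). Suclg1, the shared subunit of succinyl-CoA ligase, had 160.0, 188 and 202 against 207, 205 and 222 CPM, without overlap (0.20 ± 0.12, edgeR adjusted p = 0.416). Its partners Sucla2, for ATP, and Suclg2, for GTP, lay at 0.12 ± 0.13 and 0.21 ± 0.19, and Sucla2 held 75.6% to 80.8% of their sum per kb in adults and 73.8% to 80.5% in infants.

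Fh1, the fumarase, had 69.1, 78.4 and 94.9 CPM in adults and 68.0, 68.9 and 79.9 in infants (−0.16 ± 0.15). Mdh2, the mitochondrial malate dehydrogenase, had 345, 305 and 357 against 345, 342 and 370.2 (0.069 ± 0.10), and Mdh1, its cytosolic counterpart, 276, 254 and 293 against 246, 274 and 292 (−0.019 ± 0.11). The groups overlapped for all 3, and with errors of 0.10 to 0.15 a change of either sign of that size could not be told from none.

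Among isocitrate dehydrogenases that make NADPH, Idh2 in mitochondria had 176, 142 and 187 CPM in adults and 197, 205 and 192 in infants, without overlap (0.23 ± 0.12, edgeR adjusted p = 0.361). Idh1 in the cytosol had 7.52, 12.8 and 13.2 against 2.72, 9.43 and 8.69 CPM (−0.69 ± 0.44), at 13 to 62 counts per library. Aco1, the cytosolic aconitase that doubles as an iron-regulatory protein, had 44.1, 24.4 and 55.1 against 69.1, 37.2 and 48.8 CPM (0.32 ± 0.27), and its values varied more within an age than between ages.

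Of the enzymes that exchange carbon with the cycle, Acly, which splits exported citrate into acetyl-CoA for lipid synthesis, had 283, 256 and 284 CPM in adults and 352, 316 and 292 in infants, without overlap (0.22 ± 0.11, edgeR adjusted p = 0.322). Me2, the mitochondrial malic enzyme, had 244, 201 and 209.8 against 195, 221 and 229 (−0.022 ± 0.12). Pcx, pyruvate carboxylase, had 3.88, 19.0 and 2.99 CPM in adults and 3.56, 0.726 and 4.83 in infants. Its high value was that of adult replicate 2 alone, with 67 counts where 8.81 would lie at that library's density over untested genes. The log2 fold change of −1.47 ± 0.73 (edgeR adjusted p = 0.327) was −0.17 without that library.

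Other genes of the pathway were counted from 7 further lists in the same edgeR fit. Over all tested genes 3.64% passed, with 1.52% that rose and 2.11% that fell. In lists this small, 1 call describes that gene and not its list. Of isozymes of glycolysis outside the 45 genes, 8 of 16 were tested and 0 passed (median log2 fold change 0.31). The 2 of highest CPM were Adpgk, the ADP-dependent glucokinase (0.30 ± 0.11), and Pgm2, a phosphoglucomutase (−0.020 ± 0.15). Among regulators of glycolysis and gluconeogenesis 1 of 9 fell and 0 rose (median −0.13). That gene was Pck2, mitochondrial phosphoenolpyruvate carboxykinase, with 43.2, 46.6 and 24.997 CPM in adults and 3.98, 5.56 and 3.86 in infants. Every infant value was below every adult value (−3.09 ± 0.31, edgeR adjusted p = 5.18e-05).

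Carriers of glucose, lactate and pyruvate had 0 of 8 past the threshold (median −0.057). The highest by the mean of both ages were Bsg, the chaperone of lactate carriers (−0.054 ± 0.13), and Slc16a1, a lactate carrier (0.37 ± 0.26). The tested glucose transporters are named here after their values were seen. Slc2a1 had 48.0, 31.0 and 38.2 CPM in adults and 50.04, 38.2 and 48.1 in infants (0.22 ± 0.20). Slc2a3 had 45.8, 41.2 and 47.2 against 23.2, 35.3 and 44.9 (−0.38 ± 0.22). Groups overlapped for both. Slc2a8, at a lower level, had 6.55 to 11.9 CPM in adults and 13.3 to 14.7 in infants. It was the only 1 of the 8 carriers without overlap, and it did not pass (0.61 ± 0.31, edgeR adjusted p = 0.347). Further pentose phosphate and NADPH genes had 0 of 9 past the threshold (median 0.15), with Nadk, the cytosolic NAD kinase, at 0.26 ± 0.11 and Prps2, which makes phosphoribosyl pyrophosphate, at −0.16 ± 0.13.

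The regulators of pyruvate dehydrogenase included a change in level that exceeded the spread between replicates. Pdk1, the kinase that inhibits the complex, was the 1 of 9 tested genes of its list that fell, and 0 rose (median −0.15). Over all tested genes 2.11% fell. Pdk1 had 572, 438 and 503 CPM in adults and 320, 321 and 367 in infants, so that every infant library was below every adult one. The log2 fold change was −0.59 ± 0.12 (edgeR adjusted p = 0.0116). The call was lost without adult replicate 1 or 3 or infant replicate 1 or 2 (adjusted p = 0.0963, 0.0543, 0.0853 and 0.122), with fold changes of −0.68 to −0.48 over the 6 fits. Pdp2, a phosphatase that opposes it, was lower too, without passing (28.8 ± 4.95 and 19.0 ± 2.16 CPM, −0.60 ± 0.22, edgeR adjusted p = 0.168). It is named after its values were seen.

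Citrate cycle genes outside the 45 had 0 of 15 past the threshold (median 0.022). The highest were the succinate dehydrogenase subunits Sdha (562 ± 51.2 and 499 ± 36.1 CPM, −0.17 ± 0.11) and Sdhb (227 ± 10.7 and 257 ± 20.7, 0.18 ± 0.11). Of the transcriptional regulators of glycolysis 1 of 13 fell, against 2.11% of all tested genes, and 0 rose (median −0.0050). That was Epas1, which encodes HIF-2α, with 26.7, 17.3 and 20.9 CPM in adults and 3.14, 1.45 and 5.80 in infants. Its groups did not overlap (−2.64 ± 0.40, edgeR adjusted p = 0.00213), and both this call and that of Pck2 held when any 1 library was left out. Hif1a, Myc and Max are named after their values were seen. Hif1a had 175, 139.5 and 147 CPM against 127, 173 and 160.4 (−0.0050 ± 0.14), with overlap. Myc had 135, 139 and 162 against 176, 197 and 222, without overlap (0.45 ± 0.12, edgeR adjusted p = 0.0604), and it passed with DESeq2 (adjusted p = 0.00516), with library totals (0.0444) and with a stricter filter (0.0458). Max went the other way, with 52.1, 59.1 and 45.5 CPM in adults and 34.3, 39.2 and 35.0 in infants. Its groups did not overlap either, and it did not pass (−0.53 ± 0.17, edgeR adjusted p = 0.112).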

How the data were processed

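The authors deposited raw counts for each gene symbol, not normalized, from 6 libraries of 1000 sorted cells. Per the submitters' processing notes, STAR 2.5.4 and featureCounts were used, with mm10 as the build. Reads were paired and 25 bases long, per the labels' protocols. The sources used here name neither the annotation release nor the handling of reads with several matches. The protocol in the labels marks no strand and uses no molecular identifiers, so antisense reads cannot be told apart and counts include PCR copies.

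Here genes were tested with edgeR 4.0.16 (R 4.3.3; filterByExpr with a minimum count of 10 and total of 15, TMM factors, no covariate), 3 infant against 3 adult libraries, with Benjamini-Hochberg adjustment over 11681 genes at 0.05. Each SE was taken as the size of the log2 fold change over the root of its F. Effective library sizes for CPM were the tested genes' total times the TMM factor. A floor of 3 counts was 0.628 to 0.852 CPM, for counting error only. Replicates of 1 age differed by more than sampling noise, with a chi-square of 5.07 to 13.0 for each degree of freedom. The fit was checked on simulated counts.

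Exon lengths and positions came from GENCODE M21 (mm10), which matched 45 of 45 members, and promoters from RefSeq. Named with values in every library were members past the threshold, members without overlap at an absolute log2 fold change of at least 0.4, and the member of highest level per kb at each step. Of other lists, those past the threshold or the 2 of highest CPM were named. Members and lists were chosen with earlier results of these data known. Alternatives were DESeq2 1.42.0, limma-voom (limma 3.58.1), other normalizations and filters, a replicate block, removal of abundant gene families and leaving out each library. Those for Pck2, Pdk1, Epas1 and Myc were added after seeing the data.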

Additional observations from a re-analysis of the deposited data

How the results depend on the processing

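Over 15 alternatives, the member count stayed at 1 to 3, with 0 calls in the pentose phosphate pathway and the citrate cycle in each. It was 3 with DESeq2 and with library totals, through Pkm, and 1 with no filter on low counts, where glycolysis also had 1. Leaving out 1 library gave 1 to 2 members, 1 to 2 in glycolysis, and 139 to 488 over all genes, where DESeq2 called 916. The median of all members was 0.10 to 0.14 over the other alternatives and 0.057 to 0.14 with 1 library left out. With no filter on low counts the median over all tested genes moved too, from −0.0017 to 0.036. The pentose phosphate median was 0.14 with the stricter filter, which dropped Rpia, and 0.017 to 0.12 with 1 library left out (0.12 without adult replicate 2 or infant replicate 1). Those of glycolysis and the citrate cycle were then 0.041 to 0.17 and 0.061 to 0.15. The summed level of the 45 genes was 7.9995% to 15.5% higher in infants with 1 library left out, and 5.16% to 12.5% without Tpi1 and Ldha, an alternative chosen after seeing the data. With the replicate number as a replicate block, 326 genes and 2 members passed. Deviations of same-numbered libraries correlated at −0.047, −0.011 and −0.092, and those of differently numbered ones at −0.027 to 0.076. Taken from means of 3 libraries, these values cannot show whether same-numbered libraries shared a preparation. Signs turned for 11 members, none of them past the threshold. With no filter these were Aldoa (0.0057), Idh3b (0.014), Mdh1 (0.019) and Me2 (0.016), each under the median of 0.036 over all tested genes there. With 1 library left out the ranges were −0.051 to 0.12 for Hk1, −0.00019 to 0.11 for Gpi1, −0.10 to 0.038 for Aldoa, −0.79 to 0.075 for Aldoc, −0.049 to 0.18 for Eno1, −0.16 to 0.0040 for G6pdx, −0.00059 to 0.12 for Pgls, −0.11 to 0.030 for Rpe, −0.097 to 0.036 for Idh3b, −0.079 to 0.052 for Mdh1 and −0.075 to 0.067 for Me2. Where a call was lost, the cause was not tested. Low counts limit Hk2, Rpia, Aldoc, Pgam1, Idh1 and Pcx, which had under 100 counts in every library. For Pgam1, the part of reads with several matches in its low counts was not tested.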
